A study of Mus musculus with 6 samples.

Results

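Whole lung from mice labelled FcRg KO was compared with whole lung from wild type (WT) mice, each after the same challenge, and 130 of 16713 genes compared were at least 2-fold off WT in the same direction in both challenge-matched pairs. Of these, 105 were lower and 25 were higher on the arrays labelled FcRg KO. The study holds 6 Agilent 1-colour arrays of Cy3-labelled total RNA from homogenised mouse lung, 1 array in each of 6 groups, and 4 of them enter this comparison. The groups are FcRg KO given PBS, FcRg KO given HRF, WT given PBS and WT given HRF, and the other 2 arrays are labelled FceRIa KO, given PBS or HRF. The knockout genotypes are labelled FcRg-/- and FceRIa-/-, every animal is labelled C57BL/6, and the challenge reached the nose as PBS or as mouse histamine-releasing factor (HRF), a secreted protein known as an activator of basophils and mast cells. The labels give no age, sex, dose, time after challenge or number of mice behind an array, and no targeting construct for either knockout. With 1 array per group there is no replicate, so each difference is given for the PBS pair and for the HRF pair.

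A level is log2 of the scanner's processed signal minus log2 of the 75th percentile of that array, so 0 is a probe at the 75th percentile and each unit is a doubling. A gene was compared where its brightest probe was well above background on both arrays of at least 1 of the genotypes FcRg KO and WT. It was kept where both pair differences (FcRg KO label minus WT) reached 1 on the log2 scale with the same sign, so these differences chose the members and are given as a description. Where a probe was not well above background on an array, its value was raised to the lowest signal that was, if it lay below it, and the fold change is then written as "at least". All 4 arrays were well above background for 21 of the higher and 64 of the lower members, while 4 higher and 41 lower members carry such a bound.

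FcRg, encoded by Fcer1g, is the signalling chain that several activating Fc receptors share, among them the IgE receptor of mast cells and basophils and the IgG receptors of macrophages and NK cells. Antibodies themselves come from the B lineage, whose cells carry the membrane protein CD20 (Ms4a1) and the signalling chains CD79a and CD79b of the antigen receptor, and which mature into antibody-secreting plasma cells. The lung holds B cells beside T cells, macrophages, epithelium and endothelium. The lung markers Sftpc, Sftpb, Sftpa1, Scgb1a1, Ager, Cldn5 and Pecam1 were well above background on every array, and Sftpc, the alveolar type 2 cell surfactant protein, stood at 8.09 and 8.34 on the arrays labelled FcRg KO (PBS, HRF), against 8.10 and 8.10 in WT.

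Fcer1g was not lower under the label FcRg KO. Its level was 4.14 after PBS and 4.32 after HRF under the label FcRg KO, 4.07 and 4.45 under the label FceRIa KO, against 3.93 and 4.61 in WT. The pair differences, 0.21 and -0.29, had opposite signs and limma gave an adjusted p of 0.913. The files do not say which exon the Fcer1g probe reads, and whether it lies within a deleted part was not tested. Without that, these values cannot speak to the genotype, and the name "labelled FcRg KO" is kept as a label only. The named gene did not separate the arrays. Genes of the B cell list did: 13 of the 14 compared were kept, all lower, against 0.628% of all genes compared. These are 13 of the 105 lower members. The list was chosen with earlier results of these data known, so this count is a description.

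The sequences upstream of the lower members were searched for a pair of short motifs known from B cell promoters. One is the octamer ATGCAAAT, read by the Oct factors with which the B cell coactivator encoded by Pou2af1 works, and the other is a palindrome of the B lineage factor EBF (TCCC, any 2 bases, GGGA). Promoters of 300 bases, 250 before and 50 after the start, came from RefSeq on GRCm38.p6 and matched 82 of the 105 lower genes with 95 promoters. Both strands were read and no match of one motif overlapped the other. The octamer was in 3 of the 95 promoters (3.16%), beside 1.74% of all 32851 promoters, and the EBF palindrome was in 1 (1.05%), beside 0.904% of all. The B cell list itself had 13 promoters, from 10 of its genes. The octamer was in none of these and the EBF palindrome in 1. In the 23 promoters of higher members neither was found. These are descriptions of the windows, and the 4 promoters with a match are shown so that the matches can be seen in place. Of these genes, Blnk and Cd22 are described next, Ccr6 is a chemokine receptor of B cells and other leukocytes (5.66-fold lower) and Prkcb is the protein kinase C beta of B cell receptor signalling (2.38-fold lower). They lie at chr17:8235793-8236092 (plus strand), chr19:40994172-40994471 (minus), chr7:30878979-30879278 (minus) and chr7:122288875-122289174 (plus), and capitals mark the motif, which starts 68, 130, 49 and 70 bases before the start of the gene. Those of Ccr6, Blnk and Prkcb hold the octamer on one strand or the other, and the Cd22 promoter holds the EBF palindrome.
Ccr6: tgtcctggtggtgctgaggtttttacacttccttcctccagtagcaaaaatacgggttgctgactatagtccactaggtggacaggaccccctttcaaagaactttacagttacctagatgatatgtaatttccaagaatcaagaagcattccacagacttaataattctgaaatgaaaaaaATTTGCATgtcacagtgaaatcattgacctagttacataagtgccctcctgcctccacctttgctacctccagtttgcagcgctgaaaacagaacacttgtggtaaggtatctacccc
Blnk: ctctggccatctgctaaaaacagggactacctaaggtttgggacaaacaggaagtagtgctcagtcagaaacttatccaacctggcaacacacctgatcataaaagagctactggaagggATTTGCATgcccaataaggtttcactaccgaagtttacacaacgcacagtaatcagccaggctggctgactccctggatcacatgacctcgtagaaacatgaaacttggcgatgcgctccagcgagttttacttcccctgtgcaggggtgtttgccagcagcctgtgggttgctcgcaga
Cd22: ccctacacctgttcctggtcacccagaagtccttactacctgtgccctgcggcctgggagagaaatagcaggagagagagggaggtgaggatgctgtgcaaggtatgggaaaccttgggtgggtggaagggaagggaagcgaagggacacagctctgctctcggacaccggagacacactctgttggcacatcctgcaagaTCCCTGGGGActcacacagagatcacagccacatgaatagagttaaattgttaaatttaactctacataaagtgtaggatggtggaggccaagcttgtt
Prkcb: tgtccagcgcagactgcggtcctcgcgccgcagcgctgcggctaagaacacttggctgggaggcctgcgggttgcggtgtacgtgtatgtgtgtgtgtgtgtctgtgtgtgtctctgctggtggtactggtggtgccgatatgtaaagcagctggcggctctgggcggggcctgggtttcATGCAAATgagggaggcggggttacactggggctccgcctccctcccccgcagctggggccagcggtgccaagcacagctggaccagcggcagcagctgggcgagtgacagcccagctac

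Ms4a1, a defining gene of B cells that encodes CD20, was among the members farthest from WT. It was not well above background on either array labelled FcRg KO (-6.84 and -7.01), and stood at 2.36 and 2.76 under the label FceRIa KO, against 2.60 and 2.78 in WT, which makes it at least 594-fold lower than WT on the arrays labelled FcRg KO. In whole lung, fewer B cells and less of each RNA per B cell cannot be told apart.

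Genes of the B cell antigen receptor and its signalling were low on the same 2 arrays. Cd79b, a signalling chain of that receptor, was at 0.76 and 0.74 on the arrays labelled FcRg KO, against 3.74 and 3.99 in WT, and Cd79a, its partner chain, was at -5.35 and -5.57, against -2.04 and -1.87. These are 8.63-fold and 11.3-fold lower values. Blk, a Src family kinase of B cells, was at least 10.5-fold lower, and Bank1, a B cell scaffold protein, was 12.9-fold lower, with a second Bank1 probe at -3.53 and -4.10 in the PBS and HRF pairs. Blnk, the adaptor that links the receptor to its downstream kinases, was lower by less, at 0.97 and 1.22 on the arrays labelled FcRg KO, against 2.42 and 2.62 in WT. Cd72 and Cd22, which damp the receptor's signal, differed by -1.76 and -1.67, and by -1.23 and -1.11, in the PBS and HRF pairs. Cr2, the complement receptor that lowers the threshold of B cell activation, was 11.2-fold lower, and its second probe gave -3.29 and -3.71.

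Receptors that place B cells in lymphoid tissue and keep them alive were also low. Cxcr5, the receptor for the follicle chemokine CXCL13, was at -4.79 and -4.70 on the arrays labelled FcRg KO, against -0.19 and 0.37 in WT, a 28.6-fold lower level. Tnfrsf13c, the BAFF receptor on which mature B cells depend, was at least 38.8-fold lower, though a second, dimmer probe gave -1.44 and -1.46. Ly6d, a surface protein of early and mature B cells in mice, was 19.7-fold lower, at -1.56 and -1.22 on the arrays labelled FcRg KO, against 2.74 and 3.09 in WT. For these 3 genes both arrays labelled FcRg KO lay below both WT arrays.

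Factors that set B cell identity differed more unevenly. Pou2af1, the octamer coactivator, was at -3.84 and -3.63 on the arrays labelled FcRg KO, against 1.47 and 1.53 in WT, 37.6-fold lower. Spib, an Ets factor of B cells and plasmacytoid dendritic cells, was 16.5-fold lower. Pax5, which holds cells to the B lineage, was dim in WT at -4.21 and -4.27 and not well above background on either array labelled FcRg KO, so that its bound is at least 4.85-fold, and a second, dimmer probe gave -0.87 and -0.51. Bcl11a was 4.37-fold lower and Mef2c 2.47-fold lower. Ebf1 was the only gene of the list that was not kept, with differences of -0.45 and -0.36. Ebf1 is also expressed in stromal and fat cells, and its level of -0.50 and -0.68 on the arrays labelled FcRg KO stood close to -0.05 and -0.32 in WT.

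**Figure D1:**
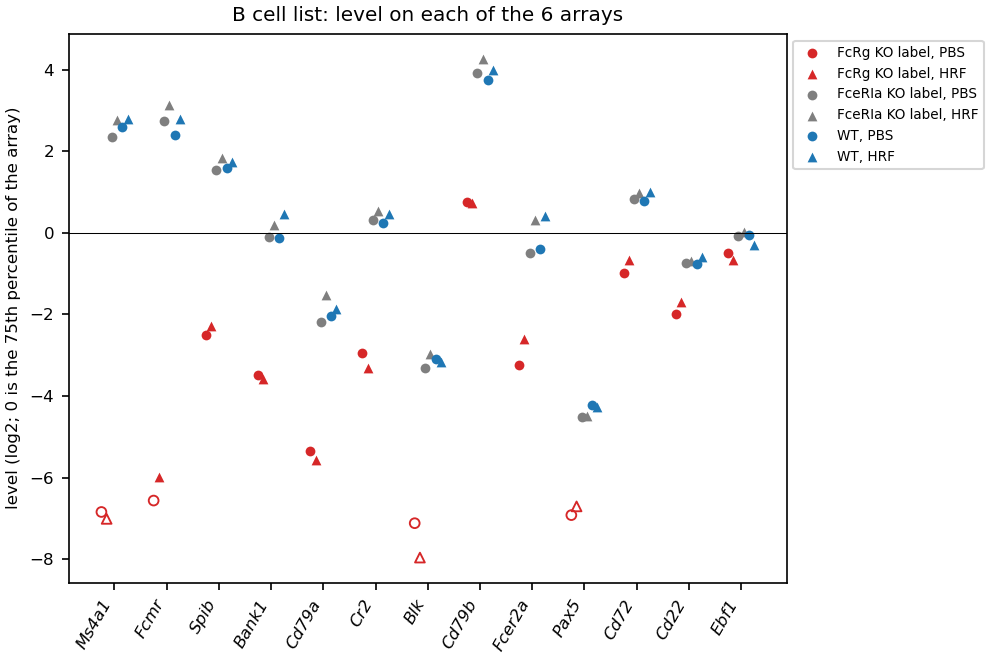
Level (log2, 0 is the array's 75th percentile) of 13 of the 14 compared genes of the B cell list on each of the 6 arrays. Red is the FcRg KO label, grey the FceRIa KO label and blue WT, circles are PBS and triangles HRF, and open symbols were not well above background. For 12 genes both red points lie at least 1 unit below the blue point of the same challenge, and for Ebf1 they do not.

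Across the 13 kept genes of the list, the level had a median of -3.48 (PBS) and -3.58 (HRF) under the label FcRg KO, 0.31 and 0.54 under the label FceRIa KO, against 0.24 and 0.46 in WT. The arrays labelled FceRIa KO differed from the same WT arrays by -0.29 to 0.35 for these genes, over both challenges. Over all 14 genes compared, the median difference of the arrays labelled FcRg KO was -3.25 in the PBS pair and -3.53 in the HRF pair, where all genes had medians of 0.00 and 0.03. The list was chosen with earlier results of these data known, so its count is a description.

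Of the 16 compared Fc receptor genes, 4 were kept, all lower, against 0.628% of all genes compared. All 4 are best known from B cells, and Fcmr is counted in the B cell list too, so the counts of the lists overlap. Fcmr, the receptor for IgM, was at -6.56 and -5.99 on the arrays labelled FcRg KO, the first not well above background, against 2.39 and 2.79 in WT, at least 460-fold lower. Fcer2a, the low-affinity IgE receptor CD23, was at -3.25 and -2.60, against -0.40 and 0.41 in WT, 7.61-fold lower. Fcrl1 was at least 17.4-fold lower and Fcrla, an intracellular Fc receptor-like protein of B cells, was 6.56-fold lower. The receptors that pair with the FcRg chain were not kept: Fcgr1 differed by 0.54 and -0.20 in the PBS and HRF pairs, Fcgr3 by 0.36 and -0.71 and Fcgr4 by 0.50 and -0.52. Fcer1a, the IgE-binding chain named in the label FceRIa KO, was at -4.70 and -4.38 under the label FcRg KO, -0.90 and -1.16 under the label FceRIa KO, against -4.48 and -4.19 in WT. It was thus 3.58 and 3.03 above WT on the arrays named for its loss. Which part of the gene the probe reads was not tested, so these values cannot speak to that label either. None of the 25 compared receptors and kinases that work with the FcRg or DAP12 chain was kept, where 0.778% of all genes compared were. In a list of this size none lies near that share and does not set these genes apart.

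Plasma cell genes split. Of 8 compared, 2 were kept, Jchain and Mzb1, both lower, against 0.628% of all genes compared. Jchain, which joins IgM and IgA into polymers, was at -6.55 (not well above background) and -6.10 under the label FcRg KO, 1.54 and 2.30 under the label FceRIa KO, against -1.12 and 0.92 in WT, at least 74.1-fold lower on the arrays labelled FcRg KO than in WT. The WT arrays differed from each other by more for Jchain than for the B cell genes above. Mzb1, a chaperone of antibody secretion that marginal zone B cells also express, was 6.96-fold lower. Xbp1, Sdc1, Prdm1 and Derl3, which epithelial and other secretory cells also express, differed from WT by less than 2-fold in each pair, with pair differences of 0.18 and -0.47 for Xbp1 and -0.03 and 0.24 for Sdc1.

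Antigen presentation genes divided by gene. Of 24 compared MHC class I and II genes, 4 were kept, all lower, against 0.628% of all genes compared. H2-Oa and H2-Ob encode the DO molecule that B cells use to restrain peptide loading, and were at -0.74 and -0.58, and at -1.24 and -0.99, on the arrays labelled FcRg KO, against 0.73 and 1.04, and 1.34 and 1.45, in WT. H2-DMb2 was 4.90-fold and H2-Eb2 3.92-fold lower. The class II genes that macrophages, dendritic cells and epithelium also express, H2-Aa, H2-Ab1, H2-Eb1, Cd74, H2-DMa and H2-DMb1, had differences of -0.22 to 0.00 in the PBS pair and -0.47 to -0.14 in the HRF pair.

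The list medians of the other lymphocytes did not share the low levels. None of the 20 compared T cell genes was kept, and their differences ran from -0.56 to 1.01 in the PBS pair (median 0.56) and from -2.47 to 0.56 in the HRF pair (median 0.06). Cd3e, a chain of the T cell receptor complex, was at 2.27 and 2.10 on the arrays labelled FcRg KO, against 1.68 and 1.98 in WT. None of the 22 compared NK cell genes was kept (medians -0.18 and -0.13). Since 0.778% of all genes compared were kept, none in lists of such size lies near that share. The thymus list had 1 kept gene of 9, Rag1, an antigen receptor recombinase gene that was at least 3.57-fold lower, and the eosinophil list 1 of 13, Il5ra, which B-1 cells also express in mice and which was 2.36-fold lower. Whether other cells changed together with the B cell genes was not tested.

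**Figure D2:**
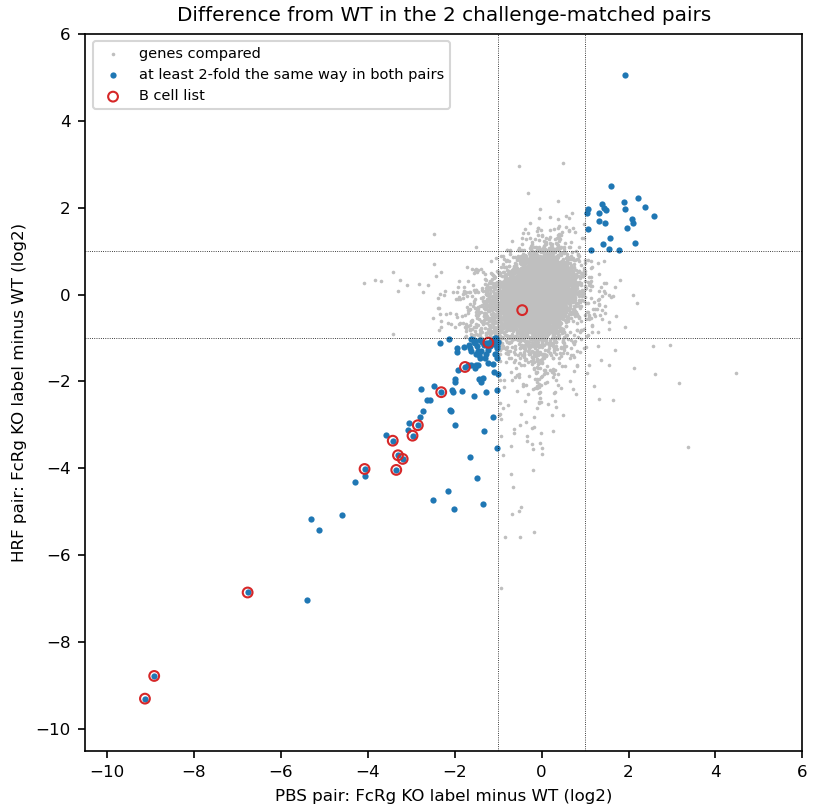
Difference FcRg KO label minus WT (log2) in the PBS pair (x axis) and in the HRF pair (y axis) for 16713 genes. Blue points are the 130 kept genes, red rings the B cell list and dotted lines the 2-fold threshold. The ringed genes run down the diagonal to -9.13 and -9.30 (Ms4a1), while Ebf1 lies near the centre.

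Over genes, the PBS and HRF pair differences correlated with a Pearson r of 0.35, a description across genes, which are not independent replicates, from pairs that share no array. Taken alone, the PBS pair had 110 genes at least 2-fold higher and 480 lower, and the HRF pair 150 higher and 491 lower. The members just inside the threshold were Arntl, Vipr2 and Sult2a1 among the higher (smaller differences of 1.01, 1.03 and 1.04) and Tmem63c, Fxyd7 and Gm6460 among the lower (-1.002, -1.008 and -1.009). Just outside lay Dpf1, Kcnab1 and Rspo2 (0.98, 0.97 and 0.92) and Olfr922, Olfr132 and Gm12185 (-0.9996, -0.997 and -0.993).

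In limma's additive fit of genotype and challenge over all 6 arrays, 39 genes were lower and 1 was higher under the label FcRg KO at an adjusted p of 0.05, which is 0.233% and 0.00598% of genes compared, and 2345 genes (14.0%) passed at an unadjusted p of 0.05. The residual of this fit is the interaction of genotype and challenge over all 6 arrays, those labelled FceRIa KO included. Its p-values therefore rest on how alike the challenge differences of all genotypes were. They do not measure the spread between mice, nor the likeness of the FcRg KO and WT pairs alone. Among genes well above background on all 4 arrays, Ly6d (log2 -4.30, SE 0.08), Pou2af1 (-5.23, SE 0.10) and Spib (-4.05, SE 0.09) each had an adjusted p of 0.0039 in limma. The fit used signals as measured, with no floor, so for genes such as Fcmr, Ms4a1 and Klhl14 (adjusted p of 0.0017, 0.0039 and 0.0039) its size rests on values not well above background and is not given. With those values raised to the floor, an alternative added after seeing the data, 35 genes were lower and 1 higher. Of the 39, 33 were kept members, where 0.628% of all genes compared were kept as lower. The 6 others were Olfr270, Olfr1352, Olfr979, Pate11, Defb29 and Ncam2. The fit reads the same difference from WT that chose the members, so this overlap is no support for the choice. Fitted on the 4 arrays of FcRg KO and WT alone, limma left 3 genes, among them Fcmr and Ms4a1, with an adjusted p of 0.037 each.

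The lower members fell into a brighter and a dimmer group. In 64 of them the mean WT level was at least -4, and in 41 it was below, where 14.7% of all genes compared lie. The brighter 64 had a median difference of -2.34 and the arrays labelled FceRIa KO differed from WT by a median of -0.05 for them. The dimmer 41 had a median difference of -1.33, and for these the arrays labelled FceRIa KO were also below WT, by a median of -1.10, with the same WT arrays on both sides. Their median measured levels were -6.58 and -6.60 under the label FcRg KO, against -4.90 and -5.17 in WT. Raising values to the floor caps such differences, so their size cannot be set beside that of the brighter group. The members were chosen as lower than these WT arrays, so the FceRIa KO difference is not independent of that choice. Of 312 olfactory receptor genes compared 8 were lower, beside 0.628% of all genes, and all 8 were in the dimmer group. That share is over genes of every level and not over dim genes, so the 8 do not set olfactory receptors apart. The WT PBS array had the largest share of spots well above background, 79.6%, where the others had 67.5% to 74.6%. The part of that array in the dim members was not tested.

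Some lower members stood farther from WT after HRF than after PBS. In 12 of the 105 the HRF pair difference exceeded the PBS pair difference by at least 1: Acod1, Ccr6, Cxcl10, Cxcl2, Cxcl3, Gbp5, Jchain, Mcoln2, Saa2, Saa3, Sectm1b and Ubd. The 12 were picked by this cut in 1 direction. The share over all genes compared and the count for a larger PBS pair difference are not given here, so they are a description. Cxcl10, an interferon-induced chemokine, was at 0.39 and 0.10 under the label FcRg KO (PBS, HRF), -1.19 and 2.44 under the label FceRIa KO, against 1.74 and 4.92 in WT. Saa3, an acute phase protein, was at 0.55 and 1.60, and -0.69 and 3.82 under the label FceRIa KO, against 1.56 and 5.13 in WT. Cxcl3, a neutrophil chemokine, was at -3.97 and -3.77, and -3.78 and 1.92 under the label FceRIa KO, against -1.96 and 1.17 in WT. In each of these 3 genes the 2 arrays labelled FcRg KO lay closer to each other than the 2 WT arrays did. Over the 12 genes the arrays labelled FceRIa KO differed from the same WT arrays by medians of -1.45 (PBS) and -1.47 (HRF), but not each gene was below WT. Jchain was above WT after both (2.66 and 1.38). Cxcl2 and Cxcl3 were above it after HRF (0.39 and 0.75) and Ccr6 was near it after PBS (0.04). The rest lay below WT after both challenges. For Cxcl10, Saa3 and Cxcl3 the limma adjusted p-values for the label FcRg KO were 0.354, 0.378 and 0.378.

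The lists that hold these genes differed in how far their pair medians lay apart, which was not tested. Over all genes compared, 0.628% were kept as lower. Of 16 neutrophil and monocyte chemokine genes compared, 2 were kept (Cxcl2, Cxcl3), with list medians of -0.43 in the PBS pair and -2.05 in the HRF pair. Of 16 interferon gamma chemokine and GTPase genes 3 were kept (Cxcl10, Gbp5, Tgtp1), with medians of -0.21 and -1.16. Of 22 acute phase genes 2 were kept (Saa2, Saa3), with medians of -0.08 and -0.49. None of 16 inflammatory cytokine genes was kept, although their medians were -0.13 and -1.88. Of 49 lists, 35 had no kept gene, among them those of basophils and mast cells, alveolar macrophages, neutrophils, alveolar type 1 and type 2 cells, endothelial cells and 28 compared genes known to vary between inbred mouse strains. Since 0.778% of all genes compared were kept, a short list with none lies near that share and does not set these cell types apart.

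**Figure D3:**
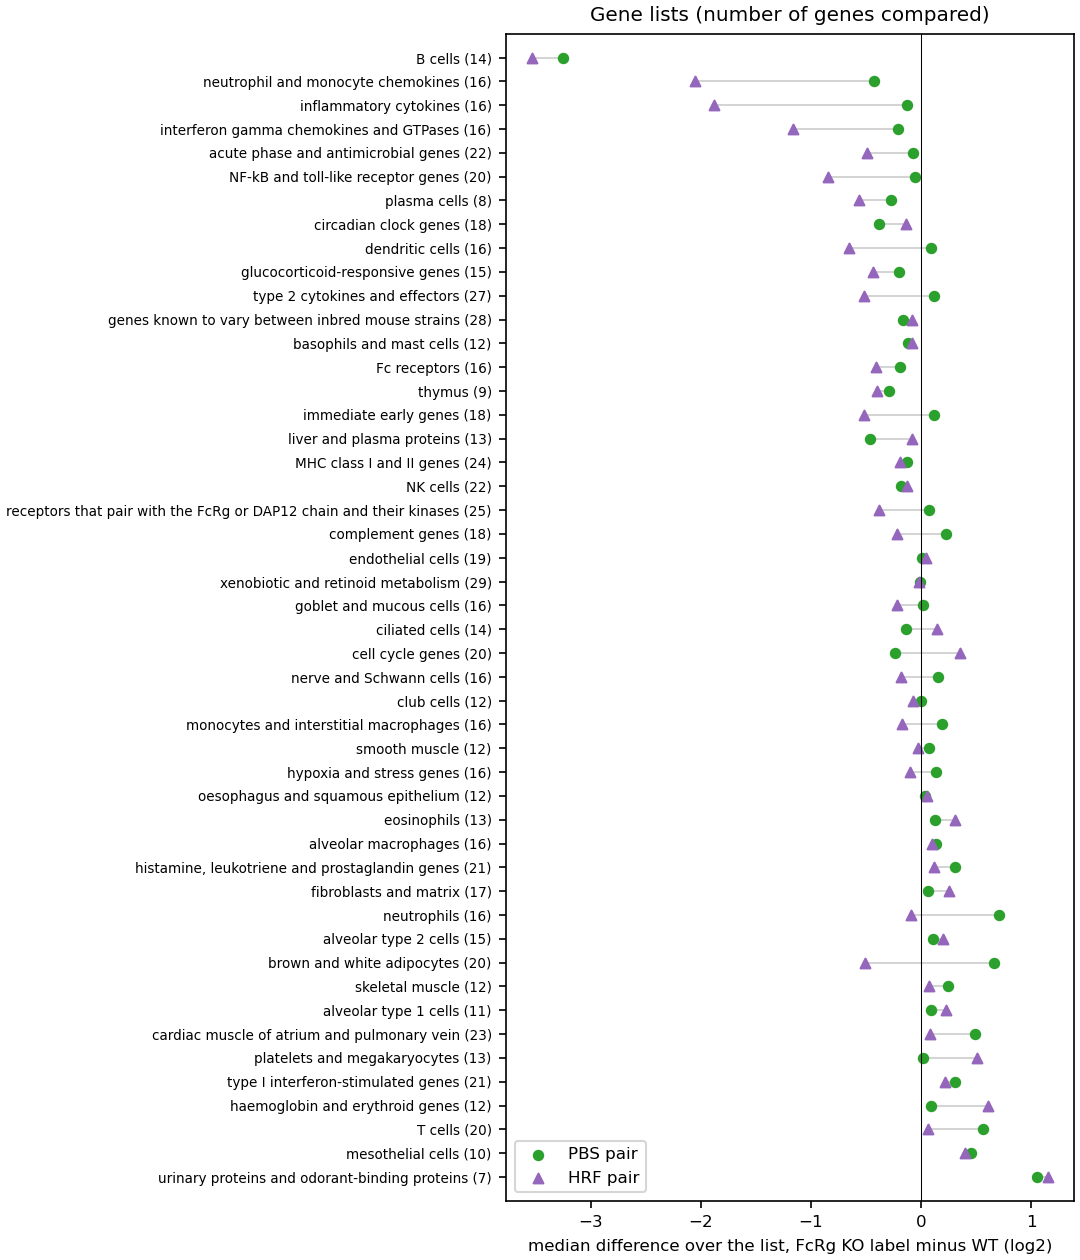
Median difference FcRg KO label minus WT (log2) of each gene list with at least 3 genes compared, in the PBS pair (circles) and the HRF pair (triangles), with the number of genes compared in parentheses. The B cell list is at -3.25 and -3.53. The chemokine list is at -0.43 and -2.05.

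The higher members were fewer, and their median difference of 1.71 was close in size to the -1.64 of the lower members. Fewer lay far from WT, with 2 at least 4-fold off in both pairs, against 33 of the lower members. The higher members amount to 0.15% of genes compared, and Fbp1 was the farthest from WT by its mean difference. Fbp1, an enzyme of glucose synthesis, was at -0.54 and 2.69 on the arrays labelled FcRg KO, against -2.45 and -2.36 in WT, so its pair differences of 1.91 and 5.05 were far from each other. Fbp2, the muscle form of the enzyme, was 4.03-fold higher. Arsk, a lysosomal sulfatase, was the only gene past the limma threshold in this direction, at 0.39 and 0.34, against -1.84 and -1.89 in WT (4.68-fold, adjusted p = 0.02). A second Arsk probe went the other way, at -2.51 and -2.76, so the direction for the gene is not settled.

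Serpina1a, Serpina1c, Serpina1d and Serpina1e, the mouse genes for alpha-1 antitrypsin, were all kept among the higher members. Serpina1a was at -1.62 and -2.14 under the label FcRg KO, -4.36 and -3.84 under the label FceRIa KO, against -4.21 and -3.94 in WT. The 4 genes were between 3.67-fold and, as a bound, at least 4.58-fold higher. They are near-identical copies, so their probes may read each other's transcripts, and second probes for Serpina1a and Serpina1e gave smaller differences, 0.53 to 0.84. The liver and plasma protein list had 1 kept gene of 13, Serpina1a, and medians of -0.47 and -0.08, where 0.15% of all genes compared were higher.

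The major urinary protein genes Mup3, Mup4, Mup5 and Mup20 were kept, 4 of 7 genes compared in their list, as was Mup19, where 0.15% of all genes compared were higher. They too are close copies. Mup20 was at -1.91 and -3.26 under the label FcRg KO, -4.52 and -1.57 under the label FceRIa KO, against -3.23 and -5.14 in WT. It was thus high after HRF outside the FcRg KO label too, and its limma adjusted p was 0.593.

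Further higher members had various roles. Eln, which encodes elastin, was at 2.44 and 2.42 under the label FcRg KO, 1.96 and 1.495 under the label FceRIa KO, against 1.01 and 0.44 in WT, 3.26-fold higher than WT on the arrays labelled FcRg KO. Spon2, a secreted matrix protein, was 3.35-fold higher. With Eln it makes 2 kept of 17 compared fibroblast and matrix genes, whose medians were 0.07 and 0.25, where 0.15% of all genes were higher. Cntn1, a neuronal adhesion protein, was 3.32-fold (the nerve and Schwann cell list had none kept of 16), Ica1l 2.91-fold and Greb1 3.28-fold higher. Arntl, the clock gene for BMAL1, was 2.64-fold higher and the only one kept of 18 clock genes, whose list medians were -0.38 and -0.14.

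**Figure D4:**
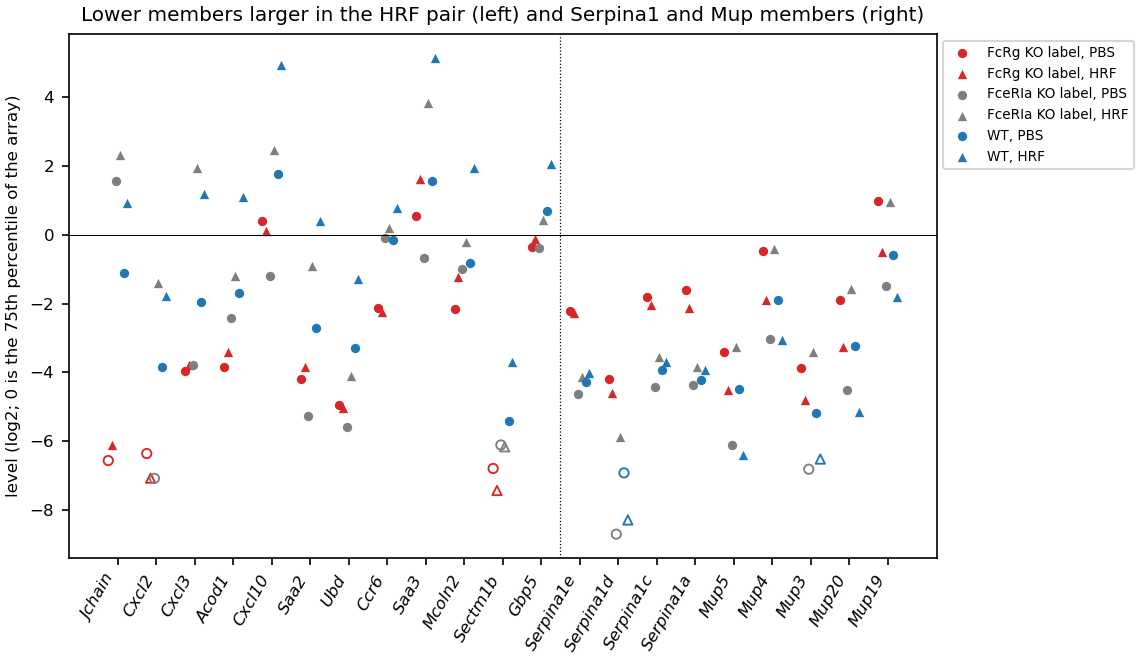
Level (log2, 0 is the array's 75th percentile) on each of the 6 arrays of the 12 lower members whose HRF pair difference was the larger by at least 1 (left of the dotted line) and of the Serpina1 and Mup members, all higher (right). Colours and symbols are those of the B cell plot: red FcRg KO label, grey FceRIa KO label, blue WT, circles PBS, triangles HRF, open symbols not well above background. On the left the WT HRF point lies above both red points for each gene, and for the Mup genes the grey HRF point lies near or above the higher red point.

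The members were spread over every chromosome but 10 and Y, where none of 781 and 4 genes compared was kept. Chromosome 12 held the largest share, with 6 higher and 6 lower of 546 genes compared (2.20%), and chromosome 17 followed with 11 lower of 836 (1.32%). Over all chromosomes the share was 0.778%. Chromosome 4 held 5 of the 25 higher members and chromosome 7 held 14 of the lower, which include Cd79a, Spib, Cd22 and Cd37. Genes of a family lie side by side, so neighbours are not independent.

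Groups of neighbours on 3 chromosomes, by the order of genes in the RefSeq table, accounted for 15 of the 130. On chromosome 12, Serpina1d, Serpina1a, Serpina1c and Serpina1e were higher, and Serpina9 and Serpina3m lower, 6 of the 11 genes compared in that stretch. Serpina9, a serpin of germinal centre B cells, was at -2.10 and -2.36 on the arrays labelled FcRg KO, against 0.96 and 0.59 in WT. On chromosome 17, H2-Oa, H2-DMb2, H2-Ob, H2-Eb2 and Btnl1 were lower, 5 of 16 compared in the stretch. On chromosome 4, Mup19, Mup5, Mup20 and Mup3 were higher, 4 of 4. Around Fcer1g itself, on chromosome 1, 190 genes within 10 Mb were compared and Fcrla was the 1 kept. Of 184 of them above background on all 4 arrays, 3 (Fcrla, Kcnj9 and Kmo, 1.63%) were at least 1.5-fold off WT the same way in both pairs, against 1.76% of all such genes.

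**Figure D5:**
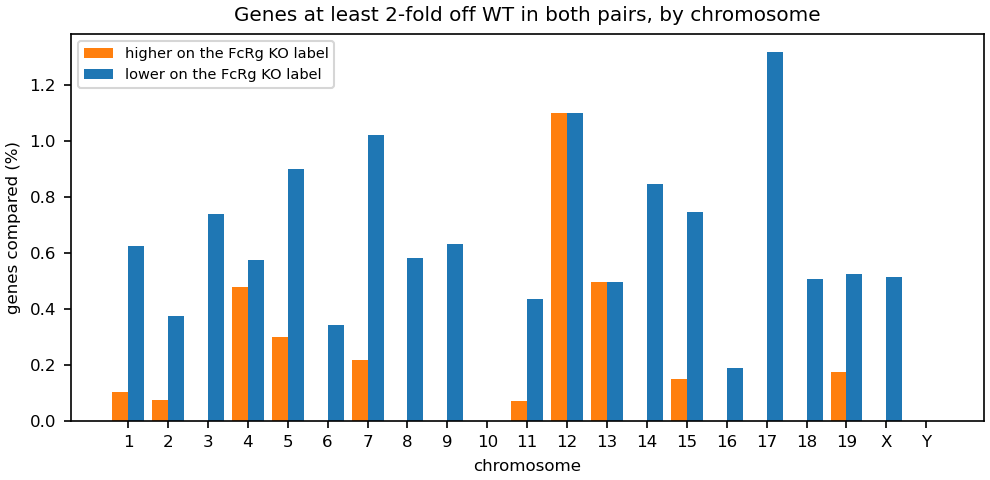
Share of the genes compared on each chromosome (%) that were at least 2-fold higher (orange) or lower (blue) on the arrays labelled FcRg KO than in WT in both pairs. Chromosome 12 has 1.10% in each direction, chromosome 17 has 1.32% lower and none higher, and chromosome 10 has none.

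Second probes gave a check of the members within the same arrays. Of 19 further probes that met the same background filter, for 18 lower genes, 17 had the same direction in both pairs and 11 were past the threshold, with Cacna1i (-0.21 and 0.03) and AF067061 (-0.02 and 0.28) as the exceptions. For 7 higher genes, 7 of 8 further probes had the same direction and 2 were past the threshold. Of the sex-linked genes, Xist was at -0.05 to 0.29 on all 6 arrays and Ddx3y, Kdm5d and Uty were not well above background on any.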

How the data were processed

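Total RNA of homogenised mouse lung was hybridised to 6 Agilent 1-colour arrays designed on mm9. Spots were extracted with Feature Extraction 10.7.3.1, as the file headers state. The deposited processed signal is a fluorescence intensity, background-subtracted by the scanner software without scaling between arrays, per the file headers. A deposited value table of log2 values, whose centring and scale are unstated, served as an alternative: its FcRg KO minus WT differences correlated with those of the scanner values over probes (r = 0.998, slope 0.999), and its column medians were 0 apart from 0.1 for WT PBS.

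Each array has 59305 spots, of which 67.5% to 79.6% were well above background, and 75th percentiles of 1197 to 1622. None was saturated. Control and outlier spots were left out and spots of a probe averaged. Of 55681 probes, 26056 were named through the RefSeq table of GRCm38.p6, giving 19752 genes, and the brightest probe stood for a gene. The number of arrays limits the precision.

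limma 3.58.1 in R 4.3.3 (lmFit, eBayes, Benjamini-Hochberg) was tested on simulated data first. Other steps used Python 3.11.15, pandas 2.3.3, numpy 2.4.6 and matplotlib 3.10.9. The alternatives were normexp background correction (offset 50) with quantile normalization, the value table, median scaling, other filters, thresholds of 1.5-fold and 3-fold, the mean of all probes, each pair alone and other limma settings.

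The members and the 49 gene lists were chosen with earlier results of these data known. The genes named by rule were the Fc receptor genes and Fcer1g; the 15 members each way with the largest smaller pair difference among those measured on all 4 arrays, and 6 each way among bounds; up to 10 each way past limma's threshold; up to 4 kept members per list, or 3 of the highest level; runs of neighbours; kept genes near Fcer1g; and 3 each side of the threshold. Not all are printed, and 1 gene that the rule names is not reported here. Bcl11a, Mef2c, Cd22, Cd72, Blnk, Prkcb, Ccr6, Pax5, Ebf1, Cd37, Xbp1, Sdc1, Prdm1, Derl3, the class II genes that were not kept, the limma calls beyond 10 and the 12 genes larger in the HRF pair were named after their values were seen.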

Additional observations from a re-analysis of the deposited data

Results flagged for a closer look

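The pairs went opposite ways by at least 2-fold in both for 19 genes, of which 17 were higher in the PBS pair and lower in the HRF pair. The difference between pairs was not tested, since each group has 1 array. The largest were Cyp26b1, a retinoic acid-degrading enzyme (FcRg KO label minus WT 3.38 in the PBS pair and -3.51 in the HRF pair), Gys2, liver glycogen synthase (3.16 and -2.03), Syt10 (2.61 and -1.84), Ucp1, the uncoupling protein of brown fat (4.47 and -1.81), Nppb (2.13 and -1.69) and Chrdl2 (1.65 and -2.43). Ucp1 was at 3.83 and -2.61 on the arrays labelled FcRg KO (PBS, HRF), against -0.64 and -0.80 in WT. For Cyp26b1 the arrays labelled FceRIa KO differed from the same WT arrays by 3.47 after PBS and -0.78 after HRF, for Syt10 by 1.57 and -0.99, and for Ucp1 by -1.31 and 1.62. The list of brown and white adipocyte genes had medians of 0.66 and -0.50 in the same pairs.

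Signal also lay in probes that the comparison of named genes does not use. Of 18923 such probes well above background on both arrays of FcRg KO or WT, 354 (1.87%) were at least 2-fold lower and 18 (0.0951%) higher in both pairs. Probes that carry an Ensembl transcript identifier alone had 101 lower of 2274 (4.44%), and 55 of these were at least 4-fold lower. Probes that carry a RefSeq accession absent from the gene table had 104 lower of 4089. Among them was the largest difference of the unnamed probes, -9.71 and -9.75 in the PBS and HRF pairs, farther from WT than Ms4a1. Its mean level was 4.66 under the label FceRIa KO, against 3.56 in WT. The largest with an Ensembl identifier differed by -8.31 and -8.81. Such values are bounds where a probe was not well above background. Of 9803 probes given by genome position alone (mm9), 126 were lower. At chr8:26212577-26218527, 4 of 5 compared probes were at least 2-fold lower, with a mean level over the probes of -4.001 on the arrays labelled FcRg KO, against -1.94 in WT. At chr5:152006587-152008784 all 3 were (-4.31, against -1.86 in WT), and at chr12:117623500-117643575 there were 3 of 5 (-4.48, against -3.33 in WT). At chr9:39982939-39992189 a probe was higher, by 4.56 and 3.17 in the PBS and HRF pairs. No gene name is given to these probes here.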

How the results depend on the processing

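The count of lower members moved with the processing, the threshold and the pair. From 105 it came to 45 with normexp and quantile normalization, 234 in the deposited value table, 64 with genes above background on all 4 arrays, 465 with no filter and no floor, 371 at 1.5-fold, 42 at 3-fold, 480 in the PBS pair alone, 491 in the HRF pair alone and 64 with only genes at a level of at least -4, an alternative chosen after seeing the data. The count of higher members, 25, came to 77 at 1.5-fold, 9 at 3-fold, 110 in the PBS pair alone and 150 in the HRF pair alone. The limma count, 40, came to 11 in the deposited value table, 16 with no filter and no floor and 3 on the 4 arrays alone, where fewer arrays set the spread. Median scaling gave 78 lower and 31 higher members, and 78 and 25 of them were shared with the main setting; normexp shared 44 and 17, and the deposited values 104 and 25. Arsk reversed to -0.20 as the mean over its probes, which disagree. Of the B cell list, 11 of 14 were kept with normexp (Cd22, Pax5 and Ebf1 were not), 12 with median scaling (Cd22 and Ebf1 were not) and 13 in the value table. Apart from the stated causes, the cause was not tested. Among named genes, 884 alternatives kept the value within its spread and 195 moved it. No paired analysis was possible because the labels give no replicate numbers to pair by, and challenge, which matches the arrays here, is already a term of the limma fit. Leaving out an array leaves 1 pair, which is the single-pair result above. All arrays rest on 1 sample per group, and values near background are bounds.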

Other observations

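Ighm, the gene for the heavy chain of IgM, lies on chromosome 12 and was chosen as a centre after the data were seen, because of the B lineage genes above. Within 10 Mb of it 123 genes were compared, by the RefSeq order, of which 5 were kept as higher and 2 as lower. Of 116 of them above background on all 4 arrays, 10 (8.62%) were at least 1.5-fold off WT the same way in both pairs, against 1.76% of all such genes. Of the 10, 6 are serpins of 1 cluster near the edge of that window, most of them in the run of neighbours above. Besides these serpins, Serpina3f among them, the 10 were Vipr2, Crip1, Wdr60 and Zfp386. Zfp386 was at 1.39 and 1.32 under the label FcRg KO, 2.41 and 2.17 under the label FceRIa KO, against 2.31 and 2.11 in WT.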
